A study of Mus musculus with 10 samples.

Results

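The Hoxd genes are Hoxd1, Hoxd3, Hoxd4, Hoxd8, Hoxd9, Hoxd10, Hoxd11, Hoxd12 and Hoxd13, 9 of the 22380 protein-coding genes annotated by GENCODE vM1 on mouse build mm9. They were chosen by their position in the Hoxd cluster and not by any measured value. The cluster runs in 1 orientation, on the plus strand, from Hoxd13 at its left end to Hoxd1 at its right end (chr2:74506367-74603200). For each gene, the sites of 4 deposited lists were taken that share at least 1 base with the gene body plus 5 kb on each side, which is called the gene window here. Neighbouring windows overlap, so that 20 of the 31 Suz12 sites at these genes belong to more than 1 of them, and the 9 genes are not independent of each other.

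The study asked where the Polycomb-like protein Pcl3 binds chromatin in mouse embryonic stem cells (ESCs) and how Suz12 and trimethylation of lysine 27 of histone H3 (H3K27me3) change when Pcl3 is knocked down, using chromatin immunoprecipitation and sequencing (ChIP-seq) of 10 libraries, 4 of them input DNA. Suz12 and H3K27me3 were measured in Suz12 Suz12TAP/+ ESCs of BayGenomics gene trap line XG122, in which 1 Suz12 allele carries a tandem affinity purification (TAP) tag, with a scramble short hairpin RNA (shRNA) as control or with a Pcl3 shRNA. Both arms therefore share the tagged allele, and Suz12 was pulled down through the tag with anti-FlagM2, while H3K27me3 was pulled down with a histone antibody. Pcl3 was measured in E14 ESCs that carry Pcl3-TAP together with a shRNA against the wild type Pcl3 (shRNA 6 or 7), so the Pcl3 sites come from a different cell line and from reintroduced, tagged Pcl3. There was 1 library for each mark and arm, and 1 list for the 2 Pcl3-TAP libraries. No difference below has a replicate check, and no test between arms was made here.

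The lists held 8876 Suz12 sites, 5722 sites with decreased Suz12 in Pcl3 shRNA cells, 5242 Pcl3 sites and 678 sites with decreased H3K27me3 in Pcl3 shRNA cells. The 4 values given for a site are its chromosome, start, end and a p-value of the Skellam test (a test of the difference between 2 read counts), with no read count, so the depth behind a site is unknown. Every site of the decreased Suz12 list repeats the position and the p of a Suz12 site, so this p measures Suz12 in control cells and not the size of the decrease. Some p-values were written as 0, which happened for 435 Suz12 sites and 208 Pcl3 sites. The smallest Suz12 p above 0 was 6.36e-308. There was no list of all H3K27me3 sites. A gene outside the decreased H3K27me3 list may therefore have unchanged H3K27me3, a decrease too small for the list, or none. The paper reports a widespread loss of H3K27me3 in Pcl3 shRNA ESCs, larger by immunoblot than by ChIP-seq.

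Hox genes encode homeodomain transcription factors that give cells their position along the body axis, and their order on the chromosome follows the order in which they are expressed along that axis. Genes at the Hoxd13 end act late and towards the tail, the limb tips and the genitalia, and genes at the Hoxd1 end act early and towards the hindbrain. In ESCs these genes are known as silent targets of Polycomb repressive complex 2 (PRC2), the enzyme that places H3K27me3. Suz12 is a core subunit of PRC2, and Pcl3 (also called Phf19) is an accessory subunit. PRC2 in vertebrates is found mainly at CpG-rich DNA.

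The promoters of 3 members are shown. Those of Hoxd13 and Hoxd1 are the most CpG-rich at the annotated gene starts. That of Hoxd10 belongs to the gene with an array result. Each promoter runs from 250 bases before to 30 bases after the annotated gene start, on the plus strand of mm9, with each CpG in capitals. Hoxd13 lies at chr2:74506117-74506396 with 33 CpG, Hoxd10 at chr2:74528897-74529176 with 8 CpG and Hoxd1 at chr2:74600787-74601066 with 26 CpG. The same stretch at the start of the transcript Hoxd8-001, which is not the annotated gene start, held 32 CpG. The rank of Hoxd1 therefore depends on the start taken.
Hoxd13 promoter: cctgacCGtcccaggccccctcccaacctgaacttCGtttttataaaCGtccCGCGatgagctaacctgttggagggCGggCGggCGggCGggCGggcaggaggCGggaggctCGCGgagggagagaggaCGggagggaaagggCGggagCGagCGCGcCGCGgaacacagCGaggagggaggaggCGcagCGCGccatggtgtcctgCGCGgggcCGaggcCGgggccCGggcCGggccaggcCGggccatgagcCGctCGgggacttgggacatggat
Hoxd10 promoter: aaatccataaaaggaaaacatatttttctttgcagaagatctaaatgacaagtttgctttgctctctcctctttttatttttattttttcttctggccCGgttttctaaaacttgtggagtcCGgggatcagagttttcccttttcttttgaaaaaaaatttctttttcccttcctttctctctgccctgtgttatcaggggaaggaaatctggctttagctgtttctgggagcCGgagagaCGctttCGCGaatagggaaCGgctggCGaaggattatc
Hoxd1 promoter: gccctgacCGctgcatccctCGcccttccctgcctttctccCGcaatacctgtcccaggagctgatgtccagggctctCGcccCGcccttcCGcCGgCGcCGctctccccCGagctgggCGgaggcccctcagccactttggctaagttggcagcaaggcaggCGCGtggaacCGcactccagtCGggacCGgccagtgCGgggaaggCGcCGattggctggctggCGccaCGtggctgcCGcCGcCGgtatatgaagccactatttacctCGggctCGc
All 3 stretches lay inside sites of the Suz12, the decreased Suz12 and the Pcl3 lists at the gene start itself.

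The centers of 4 Suz12 sites are shown next, 300 bases each, on the plus strand of mm9, because these sites differed in what happened to them in Pcl3 shRNA cells. The first (chr2:74561426-74561725, in introns of Hoxd3 and Hoxd4) lies in the 1 place of the cluster where both Suz12 and H3K27me3 decreased. The next (chr2:74527701-74528000, between Hoxd11 and Hoxd10, in an intron of the noncoding gene Gm20440) is in the decreased Suz12 list alone. The last pair (chr2:74564276-74564575, beside the microRNA gene Mir10b, and chr2:74562401-74562700, both in introns of Hoxd3 and Hoxd4) had Suz12 sites that are not in the decreased list.
Decreased Suz12 and H3K27me3: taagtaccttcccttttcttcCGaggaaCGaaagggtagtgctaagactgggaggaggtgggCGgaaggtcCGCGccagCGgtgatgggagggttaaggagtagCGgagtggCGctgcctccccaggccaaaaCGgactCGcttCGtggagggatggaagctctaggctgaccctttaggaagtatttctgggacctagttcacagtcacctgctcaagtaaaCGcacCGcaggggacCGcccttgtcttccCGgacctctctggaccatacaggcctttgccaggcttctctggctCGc
Decreased Suz12: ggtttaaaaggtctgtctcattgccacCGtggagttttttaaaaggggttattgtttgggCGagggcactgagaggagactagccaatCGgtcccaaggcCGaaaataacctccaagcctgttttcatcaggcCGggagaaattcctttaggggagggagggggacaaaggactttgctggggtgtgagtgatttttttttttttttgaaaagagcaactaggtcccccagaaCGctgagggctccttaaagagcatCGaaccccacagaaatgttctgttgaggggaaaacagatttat
Suz12 not in the decreased list, beside Mir10b: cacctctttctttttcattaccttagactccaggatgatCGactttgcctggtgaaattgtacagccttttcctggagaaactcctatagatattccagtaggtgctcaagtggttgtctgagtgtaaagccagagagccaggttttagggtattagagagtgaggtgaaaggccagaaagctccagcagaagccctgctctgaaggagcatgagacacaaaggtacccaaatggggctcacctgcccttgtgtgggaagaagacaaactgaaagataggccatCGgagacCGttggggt
Suz12 not in the decreased list: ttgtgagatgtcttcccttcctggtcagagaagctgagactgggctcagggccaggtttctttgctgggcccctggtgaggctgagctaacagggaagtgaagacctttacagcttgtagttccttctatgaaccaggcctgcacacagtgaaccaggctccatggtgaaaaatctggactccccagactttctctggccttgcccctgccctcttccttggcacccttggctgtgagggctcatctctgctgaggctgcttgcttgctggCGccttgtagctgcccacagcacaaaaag
The first of these stretches held 16 CpG and the second 7, while the last pair held 3 and 1. Other sites of the cluster did not keep this order. The center of a site at Hoxd10 that was not in the decreased list (chr2:74531951-74532800) also held 16 CpG. That of a decreased site at Hoxd3 (chr2:74552351-74553550) held 2.

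All 9 Hoxd genes had a Suz12 site, a site of decreased Suz12 and a Pcl3 site in their windows. Among all protein-coding genes, counted in the same way, 28.8% had a Suz12 site, 20.6% a site of decreased Suz12 and 14.7% a Pcl3 site. Hoxd3 and Hoxd4 shared the 1 site of decreased H3K27me3, and the other 7 genes had none, where 3.13% of all protein-coding genes had such a site. The Suz12 sites covered 62.3% of the cluster, the sites of decreased Suz12 56.6%, the Pcl3 sites 79.0% and the site of decreased H3K27me3 1.19%. Of the 19 annotated transcript starts of the 9 genes, 18 lay inside a Suz12 site, 17 inside a site of decreased Suz12 and 19 inside a Pcl3 site, and 0 inside the site of decreased H3K27me3.

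**Figure D1:**
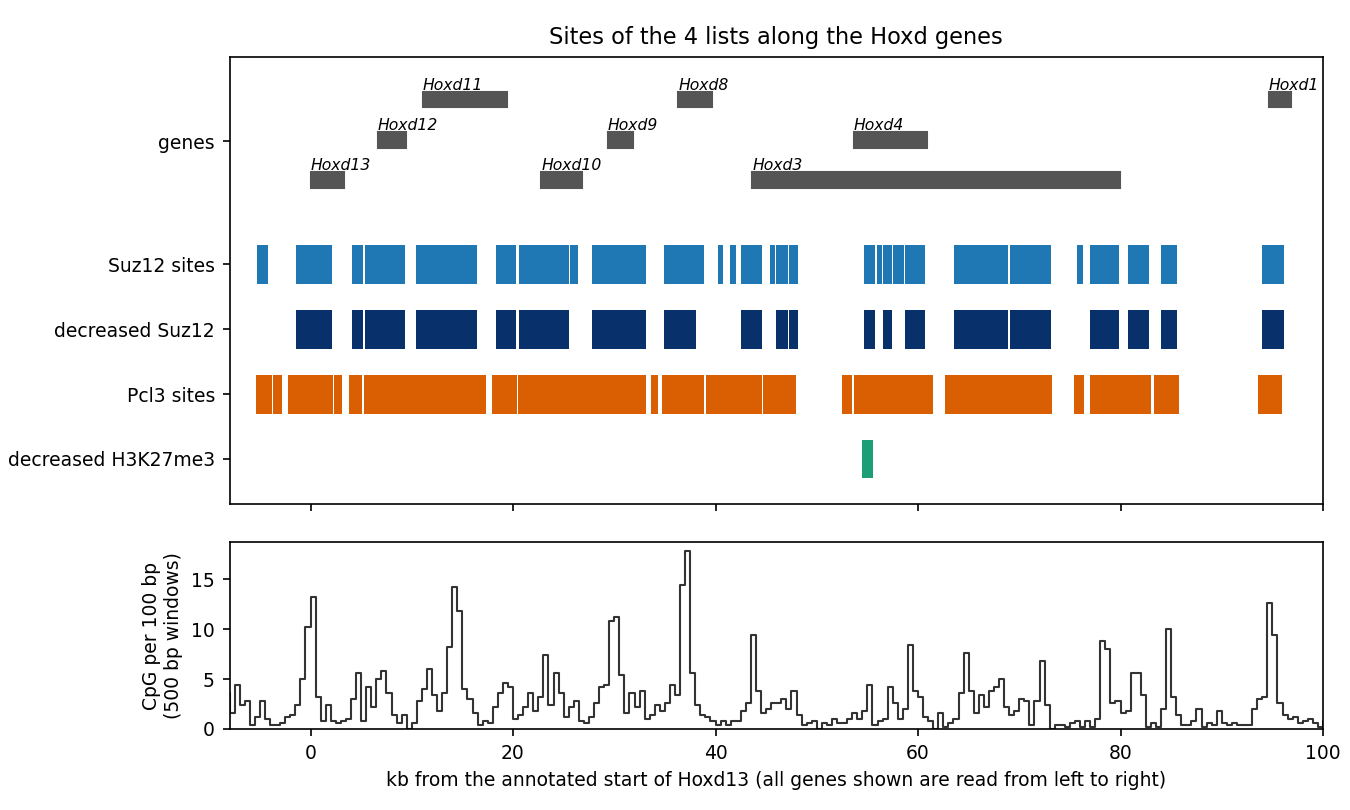
Map of the Hoxd genes and of the sites of the 4 lists, in kb from the annotated start of Hoxd13, with CpG per 100 bp in 500 bp windows underneath. Grey bars are gene bodies and coloured bars are sites. Suz12 and Pcl3 sites fill most of the stretch from Hoxd13 to Hoxd8 and thin out towards Hoxd1, and the 1 site of decreased H3K27me3 lies inside Hoxd3 and Hoxd4.

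At the Hoxd13 end, Suz12 covered 63.1% to 83.9% of the windows of Hoxd13, Hoxd12, Hoxd11 and Hoxd10, and Pcl3 covered 88.3% to 97.8%. Hoxd13, which patterns the digits and the genital tubercle, had its start in a Suz12 site of 3550 bp with a p written as 0, within a Pcl3 site of 4450 bp that was also written as 0. Its window was covered to 63.1% by Suz12 sites, to 57.2% by sites of decreased Suz12 and to 88.3% by Pcl3 sites. A Suz12 site upstream of it (chr2:74501051-74502150, p of 2.43e-21) was not in the decreased list. This weak site lay between the site over Hoxd13 and a site at the neighbouring gene Evx2 (chr2:74492801-74500450, p written as 0). Both of those were in the decreased list.

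Hoxd12, a limb patterning gene, started in a Suz12 site of 3950 bp with a p of 8.54e-201. Suz12 covered 74.6% of its window, and all of these bases were in the decreased list. For Hoxd11, which acts with its Hoxa counterpart in the forearm and the kidney, the start lay in a Suz12 site of 6000 bp with a p written as 0, the widest Suz12 site of the cluster, which ranked 109 of 8876 by width. Its window was covered to 82.0% by Suz12 and again to 82.0% by decreased Suz12. These were, with Hoxd1, the members whose whole Suz12 coverage was in the decreased list. A Pcl3 site of 12050 bp (chr2:74511651-74523700, p written as 0) held the starts of both Hoxd12 and Hoxd11.

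Hoxd10, which takes part in the patterning of lumbar motor neurons and the hindlimb, had the highest coverage of the 9 genes in the Suz12 list (83.9%) and in the Pcl3 list (97.8%), with 77.9% in the decreased Suz12 list. Its start lay in a Suz12 site of 3150 bp (chr2:74528751-74531900, p written as 0) that was in the decreased list. The next Suz12 site, only 50 bp further (chr2:74531951-74532800, p of 2.41e-20), was not, and this site reached into the last coding exon, so that 100% of the coding bases of Hoxd10 lay in Suz12 sites and 73.0% in sites of decreased Suz12. Hoxd10 is also listed by the paper among the genes whose array signal was higher in Pcl3 shRNA than in scramble ESCs, on the array of cells that were not pre-plated to remove differentiated cells. No other Hoxd gene is in the lists of either array. The array was not analysed here, and its values are not given.

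In the middle of the cluster, Hoxd9 and Hoxd8 were covered along the whole of 1 kb on each side of their starts by all 3 lists. Hoxd9, which works with its paralogues in the upper limb, lay in a Suz12 site of 5350 bp with a p written as 0, and its window was covered to 74.5% by Suz12, 67.7% by decreased Suz12 and 94.0% by Pcl3. A Pcl3 site of 12650 bp (chr2:74526901-74539550) ran over Hoxd10 and Hoxd9 together and ranked 30 of 5242 by width. It held 4 Suz12 sites, of which 3 were in the decreased list.

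Hoxd8, a trunk patterning gene, started in a Suz12 site of 3100 bp with a p of 9.16e-263. This site had the highest CpG density of the Suz12 sites in the cluster, 7.90 per 100 bp, against 3.06 for the median of the 31. The share of its window in the decreased list (52.8%) was further below its Suz12 share (66.7%) than for any other member. The window held 3 weaker Suz12 sites to the right of the gene start with p of 8.81e-19, 6.24e-10 and 3.37e-09 that were not in the decreased list. The first of them lay over the last coding exon of Hoxd8, and 69.7% of the coding bases lay in sites of decreased Suz12 against 100% in Suz12 sites.

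At the Hoxd1 end the coverage was lower and differed more between genes. Hoxd3, which shapes the first cervical vertebrae, has the longest annotated gene body of the cluster, with transcripts that start at 6 places. Its first start lay in a Suz12 site of 2100 bp with a p of 2.53e-140. The window of Hoxd3 held 19 Suz12 sites and was covered to 59.4% by Suz12, 50.7% by decreased Suz12 and 80.1% by Pcl3. Its strongest sites, of 5400 bp (chr2:74569901-74575300) and 2900 bp (chr2:74583351-74586250), lay downstream of its first start. Each held a start of another coding transcript of Hoxd3. Both had a p written as 0 and were in the decreased list. A weak Suz12 site over a coding exon (chr2:74582101-74582650, p of 2.08e-10) was not in that list, and 60.1% of the coding bases of Hoxd3 lay in sites of decreased Suz12, the lowest share of the 9 genes, against 97.7% in Suz12 sites.

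Hoxd4, which sets a segment boundary in the hindbrain, lies within the annotated body of Hoxd3. Its annotated gene start, that of its longer transcript, lay 1016 bp from the nearest Suz12 site. This was the only annotated transcript start of the Hoxd genes outside a Suz12 site. It lay inside a Pcl3 site of 7850 bp (chr2:74560001-74567850, p written as 0). The start of the other coding transcript of Hoxd4 lay in a Suz12 site of 2050 bp with a p of 1.75e-144. This site was in the decreased list, as were 100% of the coding bases. The window of Hoxd4 was covered to 46.1% by Suz12, 36.5% by decreased Suz12 and 69.9% by Pcl3.

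Hoxd1, known for its part in sensory neurons and for its response to retinoic acid, stood apart. It had 1 Suz12 site of 2200 bp (chr2:74600351-74602550, p of 1.07e-175), which was in the decreased list, and 1 Pcl3 site of 2400 bp with a p of 5.35e-87. These covered 18.1% and 19.7% of its window, the lowest shares of the 9 genes, and Hoxd1 was the only member with no site written as p of 0. Its gene body was covered to 70.0% by Suz12, which is within the range of the other members. A stretch of 8400 bp without a Suz12 site, the longest in the cluster, lay to its left.

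**Figure D2:**
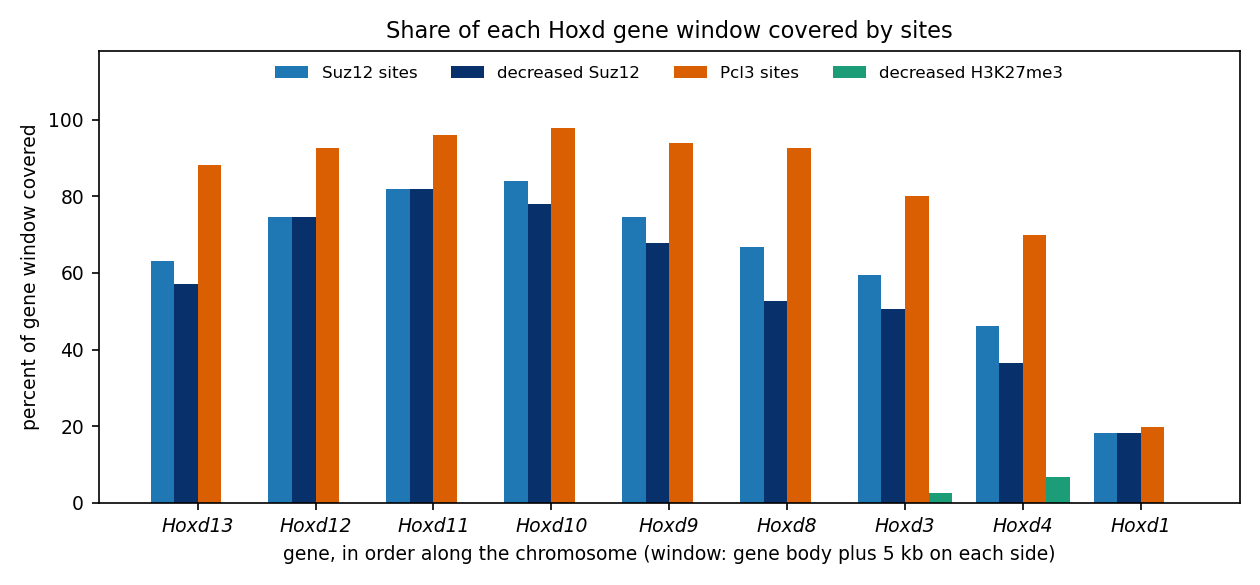
Percent of each gene window (gene body plus 5 kb on each side) covered by the sites of each list, with 1 bar per gene and list and the genes in chromosome order. Coverage by Suz12 and Pcl3 sites peaks at Hoxd10 (83.9% and 97.8%) and is lowest at Hoxd1 (18.1% and 19.7%), and only Hoxd3 and Hoxd4 have a bar for decreased H3K27me3.

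Of the 31 Suz12 sites at these genes, 22 were in the decreased list and 9 were not, where 64.5% of all Suz12 sites were in it. The 9 were narrow and weak. Their widths ran from 500 to 1150 bp with a median of 550 bp, against 850 to 6000 bp with a median of 2075 bp for the 22. Their p-values ran from 1.76e-26 to 2.74e-08. All 20 Hoxd sites with a smaller p were in the decreased list, as were 97.0% of the 4491 such Suz12 sites in the genome. Of the 11 Hoxd sites with a p between those bounds, 2 were in the decreased list (p of 5.11e-26 and 1.47e-22, both in an intron of Hoxd3), where 33.6% of the 4042 such sites in the genome were. In the cluster, as in the whole list, the stronger sites were the ones most often in the decreased list. These bounds were set by the members themselves, so the shares are a description and no test. The paper names harder detection of changes at weaker sites as a possible reading, which was not tested here. A site outside the decreased list is therefore not shown to have kept its Suz12.

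The strongest site that was not in the decreased list was the site of 1150 bp that holds Mir10b (chr2:74563851-74565000, p of 1.76e-26). Weaker sites in the same gene were in the list, so this site is out of the order set by p. Mir10b, a microRNA gene inside the annotated bodies of Hoxd3 and Hoxd4, makes mature microRNAs whose RefSeq sequences (GRCm38.p6) are given with the seed, bases 2 to 8, in capitals, because they name the product of this locus.
mmu-miR-10b-5p: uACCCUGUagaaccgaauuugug
mmu-miR-10b-3p: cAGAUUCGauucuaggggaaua
Sites that were not in the decreased list often lay at the edge of one that was. For 5 of the 9, a decreased site lay within 200 bp, where this held for 7.07% of the 3154 such sites in the genome, and the distances ran from 50 to 1700 bp. The sites of the cluster are also packed close together. Of the 30 neighbouring pairs of Suz12 sites, 12 lay within 200 bp of each other, and joining all sites at gaps of up to 1 kb left 13 stretches, so the count of sites depends on how windows were joined.

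**Figure D3:**
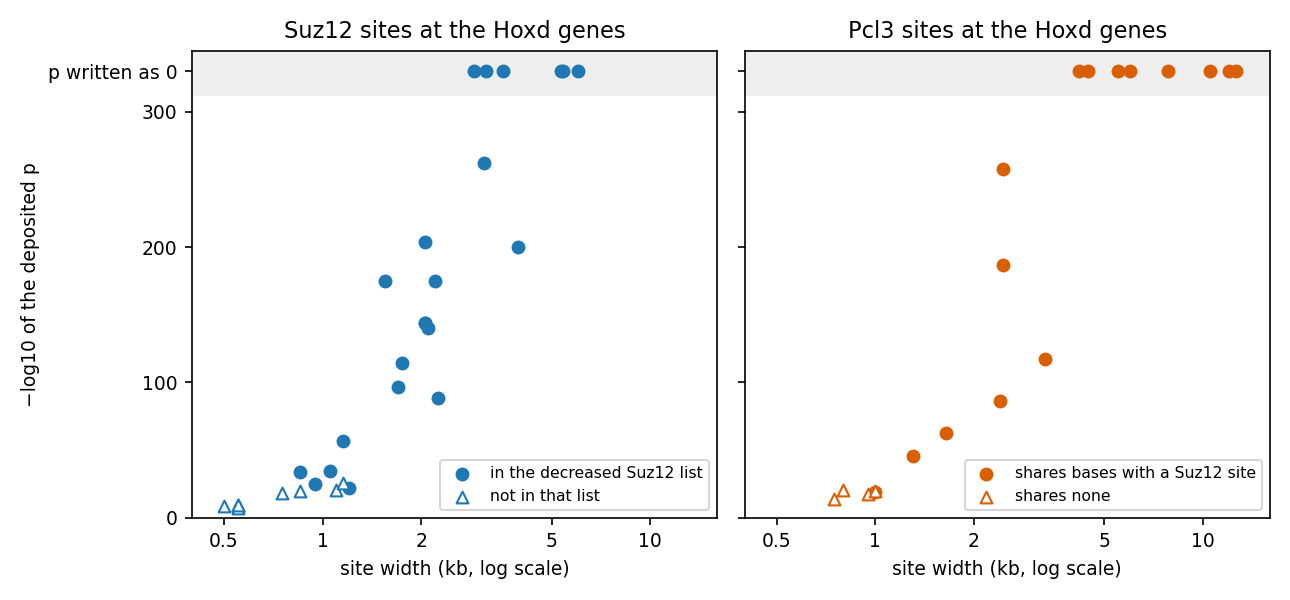
Width (log scale, kb) and −log10 of the deposited p for the 31 Suz12 and 19 Pcl3 sites at the Hoxd genes, with 1 point per site. The grey band holds sites whose p was written as 0. Open triangles are the 9 Suz12 sites outside the decreased list and the 4 Pcl3 sites that share no base with a Suz12 site, and all of them are at most 1150 bp wide.

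The Suz12 sites of the cluster lay almost wholly within Pcl3 sites. All 31 Suz12 sites shared bases with a Pcl3 site, 28 of them lay wholly inside Pcl3 sites, and this included the 9 that were not in the decreased list. In the whole list 44.3% of Suz12 sites shared bases with a Pcl3 site. By bases, 99.0% of what Suz12 covered in the cluster was also covered by Pcl3, against 48.8% in the genome. In the other direction, 78.0% of the Pcl3 bases in the cluster were in Suz12 sites, which is close to the 81.0% of the genome. Of the 19 Pcl3 sites, 8 joined 2 or more Suz12 sites, up to 5 under 1 Pcl3 site, where 4.01% of all Pcl3 sites did so. Of the 19, 15 shared bases with a Suz12 site, a share near the 76.9% of all Pcl3 sites. The other 4 had p from 1.54e-21 to 2.11e-14 and ranked 2193 to 2936 of 5242, in the middle of their list. Pcl3 and Suz12 were measured in different cell lines and against different inputs, so the wider Pcl3 sites cannot be told apart from a difference between the libraries.

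Decreased H3K27me3 was listed once in the cluster, at chr2:74560801-74561950, a site of 1150 bp with a p of 3.18e-08. It ranked 477 of 678 by p, in the weaker part of its list. The site lay inside the bodies of Hoxd3 and Hoxd4, mostly in their introns and without a coding base, 766 bp downstream of the annotated start of Hoxd4. Of its bases, 78.3% lay in a Suz12 site (chr2:74561051-74562100, p of 1.14e-35) that was in the decreased list and 100% in a Pcl3 site. It covered 6.69% of the window of Hoxd4 and 2.48% of that of Hoxd3. The nearest other sites of this list on the chromosome were 5082416 bp to the left of the cluster and 17696750 bp to the right. In ESCs with Pcl3 shRNA, decreased Suz12 was thus listed at all 9 genes and decreased H3K27me3 at 1 stretch shared by 2 of them. The lists differ in size and in what they compare, and whether H3K27me3 changed less than Suz12 at the other genes was not tested. The paper also reports lower Suz12 mRNA and protein in Pcl3 shRNA ESCs. It proposes that this may account for part of the decreased Suz12 binding, which was not tested here.

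The sites followed the CpG density of the cluster. In windows of 500 bp along the cluster, all 28 windows with at least 5 CpG per 100 bp had their center in a Suz12 site, in a site of decreased Suz12 and in a Pcl3 site. Of the 58 windows with under 1 CpG per 100 bp, 19.0% had it in a Suz12 site, 8.62% in a site of decreased Suz12 and 46.6% in a Pcl3 site. These bounds were chosen after the values were seen. The densest window, with 17.8 CpG per 100 bp, lay at Hoxd8, 37.2 kb from the start of Hoxd13. The 22 Suz12 sites in the decreased list had a median of 3.75 CpG per 100 bp and the 9 others 1.74, while the whole Suz12 list had 5.41 and the whole decreased list 5.45. Sites at the Hoxd genes were therefore less dense in CpG than the list as a whole, and they were also wider.

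CpG content at the gene starts varied between members. In the promoter stretch of 280 bases, Hoxd13 had 11.8 CpG per 100 bp and Hoxd1 9.29, followed by Hoxd3 with 4.64, Hoxd9 and Hoxd12 with 3.93 each, Hoxd10 with 2.86 and Hoxd8 with 2.14. Hoxd4 and Hoxd11 had 1.43 each. These values were taken at the annotated gene start, which for Hoxd8, Hoxd11 and Hoxd4 is not the start of their first listed coding transcript. At that transcript start the values were 11.4 for Hoxd8, 6.43 for Hoxd11 and 2.14 for Hoxd4. At the annotated gene starts the median of the 9 was 3.93, near the 3.57 of all protein-coding promoters. Hoxd13 and Hoxd1, the most CpG-rich at the annotated gene starts, were at opposite ends of the cluster. They had 63.1% and 18.1% of their windows covered by Suz12. The letters GCGCGC, the same on both strands and counted with overlaps, occurred in 1 of the 9 promoters (Hoxd13) and in 15.4% of all promoters, and in 29.0% of the Hoxd Suz12 sites against 52.5% of the whole list. In Hoxd Pcl3 sites the shares were 47.4% and 48.5%. Over whole gene windows it was the other way, since all 9 Hoxd windows held these letters against 60.2% of all windows, with a median of 3.11 CpG per 100 bp against 1.16.

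Few sites lay outside the cluster. Evx2, a homeobox gene to the left of Hoxd13 that is read in the opposite direction, was covered to 51.9% of its window by Suz12, 45.3% by decreased Suz12 and 60.6% by Pcl3. Beyond it, Lnp, which encodes a membrane protein of the endoplasmic reticulum, had no site of any list. Mtx2, which encodes a part of the mitochondrial import machinery to the right of Hoxd1, had 1 weak Pcl3 site (p of 7.40e-10) and no other. The next Suz12 site to the right lay 371900 bp from the end of Hoxd1. The noncoding genes between the Hoxd genes had from 30.0% of the window covered by Suz12 for Gm14426 to 81.2% for Gm20440, and the body of Gm14426 itself, in the gap before Hoxd1, had 0% covered by any list.

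The other Hox clusters had the same 3 lists at every gene. All 39 Hox genes had a Suz12 site, a site of decreased Suz12 and a Pcl3 site. The Suz12 coverage of the cluster, from the first to the last gene, was 62.3% for Hoxd, 60.8% for Hoxc, 71.8% for Hoxa and 76.6% for Hoxb (without the distant Hoxb13). The share of Suz12 sites in the decreased list was 73.3% for Hoxd, 76.0% for Hoxa, 70.4% for Hoxb and 81.5% for Hoxc, against 64.5% of the whole list. Hoxd had the lowest Pcl3 coverage, 79.0%, where the others had 86.6% to 92.3%. Hoxd1 had the lowest window coverage of all 39 genes in each of the 3 lists, followed by Hoxb1 with 29.6% for Suz12 and 19.6% for decreased Suz12 and by Hoxc4 with 55.8% for Pcl3. The highest Suz12 coverage was 96.3%, at Hoxb8.

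Decreased H3K27me3 was listed at different shares of the genes in the 4 clusters, unlike the other 3 lists. It was found at 2 of 9 Hoxd genes and 2 of 9 Hoxc genes, but at 7 of 11 Hoxa genes and 8 of 10 Hoxb genes. The covered share of the cluster was 1.19% for Hoxd, 3.07% for Hoxc, 7.06% for Hoxa and 13.7% for Hoxb. At Hoxb9, the Hox gene with the highest share, 45.6% of the window was covered, and the smallest p at any Hox gene was 2.90e-26 at Hoxb1, against 3.18e-08 at Hoxd. Without replicates these counts could not be tested against the spread between cultures. The clusters also lie on different chromosomes, Hoxb on chromosome 11, Hoxa on 6, Hoxc on 15 and Hoxd on 2. The paper reports the strongest loss of H3K27me3 on the chromosome that carries the Hoxb genes. Whether the chromosome accounts for the difference between the clusters was not tested.

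**Figure D4:**
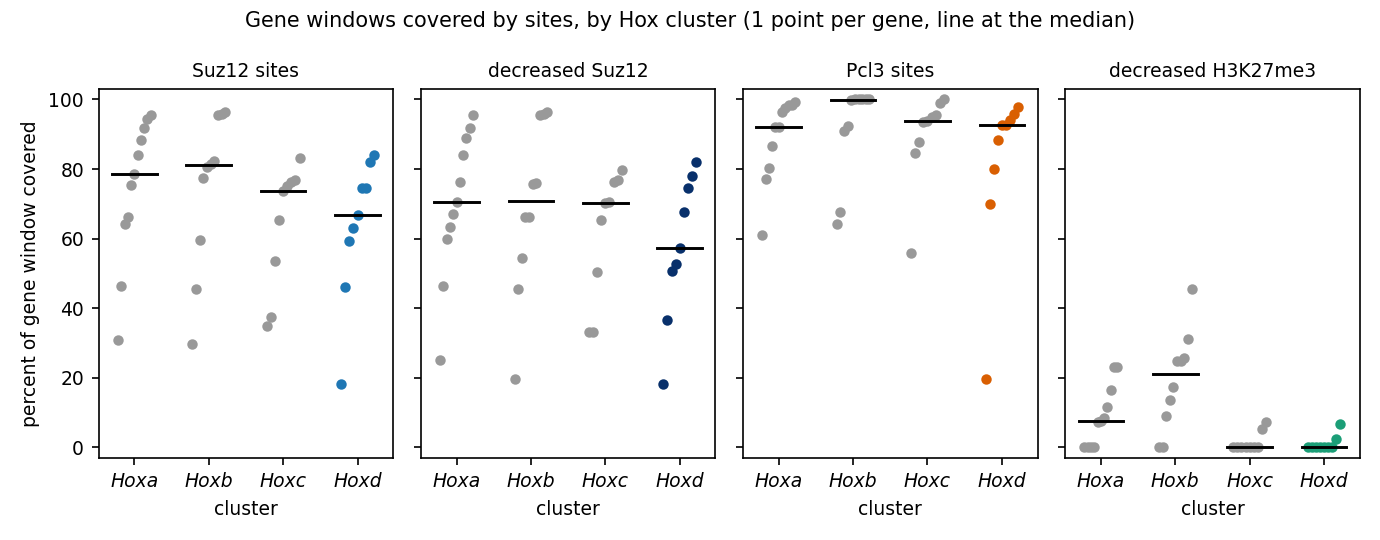
Percent of the gene window covered by each of the 4 lists, with 1 point per Hox gene and a line at the median of each cluster, Hoxd in colour. Hoxd overlaps the other clusters in the first 3 lists, with Hoxd1 the lowest point, and in decreased H3K27me3 the Hoxa and Hoxb genes reach higher than the Hoxd genes.

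Against all protein-coding genes, the Hoxd windows were among the most covered. The median of the 9 was 66.7% for Suz12, 57.2% for decreased Suz12 and 92.6% for Pcl3, where the median gene with a site had 3.17%, 4.01% and 2.45%. Only 63 of 22380 genes had more of their window covered by Suz12 than the Hoxd median, 93 by decreased Suz12 and 30 by Pcl3. These include other Hox genes and members above the median. Gene length was not matched, and a site of a given width covers a smaller share of a longer window. Outside the Hox clusters, the 5 genes whose 4 coverage values lay nearest to the Hoxd mean, by Euclidean distance in percentage points, were Nkx2-1 at 2.70, Osr1 at 3.44, Dlx1 at 6.15, Dlx5 at 6.50 and Zic1 at 7.92. All of them encode developmental transcription factors. The Hoxd genes themselves lay from 7.19 (Hoxd13) to 85.8 (Hoxd1) away from this mean, so it is not the pattern of each member. Nkx2-1, for example, was covered to 65.4% by Suz12, 58.4% by decreased Suz12, 81.5% by Pcl3 and 0% by decreased H3K27me3.

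Cofactors that bind DNA together with Hox proteins, encoded by TALE homeodomain genes, had smaller shares of their windows covered. Of the 8 such genes counted here, 5 had a Suz12 site, the same 5 a site of decreased Suz12, and 4 a Pcl3 site. Meis1, on chromosome 11 like the Hoxb genes, had 8.26% of its window in Suz12 sites. It was the only one with decreased H3K27me3 (0.673%, p of 7.99e-08). Meis2 had 5.01% in Suz12 sites, Meis3 4.02%, Pknox2 1.37% and Pbx3 1.11%, all of it in the decreased list. Pbx2, Pbx4 and Pknox1 had no site of any list. Most of these genes are longer than the Hoxd genes, so their shares are of larger windows. Within 1 kb of the start the Suz12 coverage was 93% for Meis1 and 95% for Meis2, and 42.5% to 65.1% for Meis3, Pbx3 and Pknox2. Among the Hoxd genes it was 0% at Hoxd4 and ran from 82.4% (Hoxd11) to 100% at the others.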

How the data were processed

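The authors used Bowtie to place single-end reads of 30 nt on mm9, retained those with 1 position, scaled paired libraries to equal background and scanned 400 bp windows, joining those with a Skellam p-value under 1e-07. Bowtie and mm9 are also in the submitters' processing notes, and the Bowtie version is not given in the sources used here. The authors recomputed p over the joined windows, so the deposited p is not independent of the width of a site. It was used as written for each site, and the pooling of the 2 Pcl3-TAP libraries is not stated. Sites were intersected with GENCODE vM1 genes (Python 3.11.15, numpy 2.4.6, pandas 2.3.3, matplotlib 3.10.9), and base composition was read from the NCBIM37 genome, whose 21 chromosome names held every site. Overlap functions were tested on simulated data (400 queries, 0 mismatches). Hoxa3 has more than 1 gene record and the longest was used. The genes named are the 9 members, their neighbours, the other Hox genes, TALE cofactors and the 5 genes with the nearest coverage, and not every gene looked at is reported here. Members and lists were chosen with earlier results of these data known. Alternatives were other windows, site centers, p of at most 1e-12 and other gene sets.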

Additional observations from a re-analysis of the deposited data

How the results depend on the processing

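All 9 Hoxd genes kept a Suz12, a decreased Suz12 and a Pcl3 site without flanks, within 2 kb of the gene start, with 10 kb flanks, by site center and at p of at most 1e-12. The genes with decreased H3K27me3 fell from 2 to 1 within 2 kb of the gene start, since the site lies far inside Hoxd3, and to 0 at p of at most 1e-12, since its p is larger. With 5 kb added on each side of the cluster, coverage was 58.5% for Suz12, 52.7% for decreased Suz12, 75.7% for Pcl3 and 1.08% for decreased H3K27me3. At p of at most 1e-12 it was 59.5% for Suz12 and 0% for decreased H3K27me3. Over all 37310 annotated genes the background was 20.9% for Suz12, 15.0% for decreased Suz12, 10.9% for Pcl3 and 2.28% for decreased H3K27me3. No paired analysis was possible because the lists hold no values per sample. Without read counts or replicates, neither the size of a decrease nor its error can be given, and a site just outside a list cannot be told from an unchanged one.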
